A study of Homo sapiens with 12 samples.

Results

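The genes described here encode the SR proteins and the hnRNPs, the best studied RNA-binding regulators of splicing. They were chosen by name as the protein-coding genes whose symbol starts with SRSF or HNRNP. This gave 38 of the 65969 gene identifiers in the deposited table, of which 12 are SRSF and 26 are HNRNP genes. A further 139 of the 177 symbols with these starts are not protein-coding and were left out. All 12 SRSF and 22 of the 26 HNRNP genes passed the filter on low counts. The other members, HNRNPCL1, HNRNPCL2, HNRNPCL3 and HNRNPCL4, were at 0 in every library, apart from 0.0269 CPM of HNRNPCL1 in 1 H1 KD3 library. CPM are counts scaled to a common library size, with the TMM factors of edgeR.

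The RNA came from human embryoid bodies, balls of differentiating stem cells, grown from the established embryonic stem cell lines H1 and MEL1. Both lines had been transduced with lentiviral vectors for hairpin RNAs switched on by doxycycline and selected with puromycin. The hairpins KD1, KD2 and KD3 target METTL14, which encodes a subunit of the enzyme complex that places N6-methyladenosine (m6A) on RNA, and SCR is the control hairpin. All groups, SCR included, were seeded at 500 cells per microwell and received doxycycline at 2 µg/ml for 10 days. H1 has 2 libraries for each of SCR, KD1, KD2 and KD3, and MEL1 has 1 SCR, 2 KD1 and 1 KD2 library. The labels do not say whether libraries of a group came from separate cultures, so p-values measure the spread between libraries, which may be technical.

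SR proteins carry RNA recognition motifs and a domain rich in arginine and serine, bind mainly in exons and promote their inclusion, and are controlled by phosphorylation and shuttling. Many SR protein genes dampen their own output through poison exons, which mark the transcript for nonsense-mediated decay. The hnRNPs coat nascent transcripts and often repress nearby splice sites. Some of them, among them HNRNPC and HNRNPA2B1, are known for binding RNA whose folding is altered by m6A. SRSF3 is known as a factor that stem cells need for self-renewal. Counts here are totals per gene, so inclusion of a poison exon or any other change between isoforms was not measured.

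The promoters of SRSF3, SRSF7, SRSF1 and HNRNPLL are shown as examples of members called lower in H1, in the average of the hairpins or with KD1. Those of the other called members are not shown. Each is the 250 bases before the RefSeq start on GRCh38.p14, 5′ to 3′ on the gene's strand. Capitals mark motifs found on either strand, whose reversed forms are given second. They are the motif CCAAT, reversed to ATTGG, the motif GGGCGG, reversed to CCGCCC, and the motif TATAAA, reversed to TTTATA. The windows are chr6:36594112-36594361 (plus strand) for SRSF3, chr2:38751495-38751744 (minus strand) for SRSF7, chr17:58007247-58007496 (minus strand) for SRSF1 and chr2:38602929-38603178 (minus strand) for HNRNPLL. SRSF7 has 2 RefSeq entries, of which the first is shown.
SRSF3: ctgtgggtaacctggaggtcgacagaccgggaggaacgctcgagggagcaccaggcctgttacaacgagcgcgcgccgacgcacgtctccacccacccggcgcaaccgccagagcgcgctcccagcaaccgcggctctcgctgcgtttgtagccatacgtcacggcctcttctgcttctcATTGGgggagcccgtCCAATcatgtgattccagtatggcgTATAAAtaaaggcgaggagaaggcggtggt
SRSF7: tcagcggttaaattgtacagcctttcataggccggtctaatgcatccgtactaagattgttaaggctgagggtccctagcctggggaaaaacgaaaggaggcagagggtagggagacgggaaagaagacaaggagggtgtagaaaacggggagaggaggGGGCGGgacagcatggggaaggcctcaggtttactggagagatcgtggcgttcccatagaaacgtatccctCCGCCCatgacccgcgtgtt
SRSF1: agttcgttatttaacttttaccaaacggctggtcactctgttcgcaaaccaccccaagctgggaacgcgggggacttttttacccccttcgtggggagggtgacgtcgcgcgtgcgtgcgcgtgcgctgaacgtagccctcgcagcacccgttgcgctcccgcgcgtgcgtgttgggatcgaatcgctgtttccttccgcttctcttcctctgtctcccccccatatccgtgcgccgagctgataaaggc
HNRNPLL: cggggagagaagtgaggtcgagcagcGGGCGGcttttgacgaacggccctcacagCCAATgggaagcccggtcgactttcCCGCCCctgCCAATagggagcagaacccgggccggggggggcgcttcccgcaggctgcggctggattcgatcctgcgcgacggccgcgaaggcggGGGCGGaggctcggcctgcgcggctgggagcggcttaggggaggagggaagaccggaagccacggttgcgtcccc

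The SRSF3 window holds CCAAT 2 times, once on each strand, and TATAAA 1 time. The SRSF7 window holds only GGGCGG, once on each strand, and the SRSF1 window holds none of the 3 motifs. HNRNPLL has CCAAT 2 times and GGGCGG 3 times. Over the members with an entry, 2 of 11 SRSF and 18 of 23 HNRNP genes had CCAAT, against 32.0% of all 35116 windows of this length. GGGCGG was in 4 of 11 SRSF and 17 of 23 HNRNP genes, against 42.6% of all windows. TATAAA was in 3 of 11 and 3 of 23 genes, against 10.7% of windows. A member with several entries counted once, with the motif if any of its windows held it. The shares of genes and of windows thus differ in unit. These are matches of letters and say nothing of what binds there.

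Depth and the targeted gene were checked first. Libraries held 36609628 to 43508287 estimated counts, except the MEL1 SCR library with 15963241. SRSF genes took 0.200% to 0.312% and HNRNP genes 1.13% to 1.53% of a library. METTL14 stood at 29.8 and 43.8 CPM in H1 SCR, 11.1 and 10.99 with KD1, 17.7 and 14.8 with KD2, and 8.89 and 13.5 with KD3. In MEL1 it was at 49.9 CPM with SCR, 8.03 and 5.94 with KD1 and 8.95 with KD2. The METTL14 log2 fold change was -1.54 ± 0.18 (SE) in the H1 average and -2.66 ± 0.27 in MEL1, with adjusted p = 0.00228 and 0.0040. Some cell type markers moved with the knockdown. In H1, summed mesoderm markers (5 genes) lay between 154 and 158 CPM (SCR) and between 60.4 and 89.4 CPM (knockdown). Nearly all of that sum was KDR, at 153 and 157 CPM (SCR) and between 59.6 and 88.2 CPM (knockdown). The other markers of this list were at most 0.685 CPM each in any H1 library. Of the 5, only KDR was called lower in the H1 average. Neural progenitor markers (5 genes) lay between 865 and 907 CPM (SCR) and between 937 and 1121 CPM (knockdown), with 3 called higher in the H1 average. PAX6 and LHX2 lay above SCR in every knockdown library, and OTX2 did so with KD1 and KD2. NES was at 530 and 570 CPM with SCR, lower with KD1 (431 and 452) and higher with KD3 (578 and 580). SOX1 was at 23.5 and 23.7 CPM with SCR, also lower with KD1 (11.9 and 17.2) and higher with KD3 (33.0 and 39.7). Pluripotency markers (7 genes) overlapped in sum, at 1798 to 1933 and 1827 to 2210 CPM, although 3 were called lower and 1 higher in the H1 average, and 4 lower with KD1. Endothelial markers (3 genes) lay at 6.62 and 6.63 CPM (SCR) and between 3.06 and 6.44 CPM (knockdown). Neuron (5 genes) and stromal (4 genes) sums overlapped between the groups in H1, although some single markers did not. Of the neuron markers, 1 was called lower and 0 higher in the H1 average. STMN2 was at 128 and 129 CPM with SCR and between 65.5 and 108 CPM with knockdown. MAP2 overlapped SCR with KD1 and KD2 and lay above it with KD3. Of the stromal markers, 1 was called higher and 0 lower with KD1. COL1A1 was at 144 and 156 CPM with KD1 against 73.9 and 42.9 with SCR. In MEL1, summed neural progenitor markers stood at 647 CPM in the SCR library and between 444 and 530 CPM in the knockdown libraries. NES and OTX2 made up most of that sum and were lower in every knockdown library. PAX6, SOX1 and LHX2, each at most 8.34 CPM in MEL1, were higher in every one. The median log2 fold change of the 5 genes was 0.74 in the MEL1 average, and none was called. In the same order, mesoderm sums were 105 and 59.9 to 97.7 CPM, of which KDR alone held 99.0 and 58.0 to 91.9. Endothelial sums were 11.9 and 4.73 to 10.8 CPM. Stromal sums were 81.6 and 157 to 165 CPM, of which COL1A1 held 73.6 and 132 to 146. Pluripotency markers (4613 CPM with SCR, 2833 to 5284 with knockdown) and neuron markers (132 and 126 to 172) overlapped there in sum. Of the pluripotency markers, 2 were called lower and 0 higher in the MEL1 average, and the hairpins differed. POU5F1 was at 496 CPM with SCR, 798 and 879 with KD1 and 240 with KD2. DNMT3B, NANOG and TDGF1 were likewise above SCR with KD1 and below it with KD2. SOX2 was below SCR with both hairpins. DPPA4 and LIN28A lay on both sides of SCR with KD1 and below it with KD2. Endoderm markers (4 genes) were near 0, at most 1.57 CPM in sum. The part of these cells in the member values was not tested. In such bulk RNA, fewer cells of a type and less RNA per cell cannot be told apart.

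Levels of different genes were compared per kilobase of the principal transcript. Among the SRSF genes in H1, SRSF1 was highest at 211 ± 41.6 CPM per kb (SD, n = 8), followed by SRSF9 at 152 ± 10.8 and SRSF3 at 114 ± 26.8. SRSF5, SRSF7, SRSF10, SRSF2, SRSF4, SRSF6 and SRSF11 followed in that order, from 105 down to 39.8 CPM per kb. SRSF8 and SRSF12 were far lower, at 5.33 ± 0.70 and 5.16 ± 0.42. Neighbours in this order overlapped over the H1 libraries, except at the step from SRSF11 to SRSF8. In MEL1 SRSF1 was again highest, at 301 ± 43.1 CPM per kb (SD, n = 4), and SRSF2 ranked 4 of 12 there and 7 of 12 in H1.

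The 5 most abundant HNRNP genes had higher means per kilobase than any SRSF gene. HNRNPC, which binds uridine-rich tracts in nascent RNA, stood at 788 ± 129 CPM per kb in H1 (SD, n = 8) and HNRNPA1, a repressor of many splice sites, at 774 ± 65.6. HNRNPK followed at 390 ± 31.1, HNRNPA2B1 at 312 ± 40.8 and HNRNPA3 at 279 ± 38.2. From HNRNPH3 at 156 ± 12.3 down to HNRNPH2 at 58.5 ± 4.72, each of the 12 genes overlapped its neighbour. HNRNPLL was low at 17.3 ± 2.41, and HNRNPA1L2 and HNRNPA1L3 stood at 6.26 and 2.61. Reads of these last 2 cannot be told from HNRNPA1 with certainty, since they are near-copies of it. HNRNPL and HNRNPR each share identical counts with 1 other identifier, so their printed levels are a share of the gene's reads. HNRNPUL2 overlaps a readthrough gene, HNRNPUL2-BSCL2, and its counts may hold some of that transcript's reads.

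In H1, the knockdown libraries held less SRSF3 and SRSF7 RNA than SCR with each hairpin, and the shortfall was deepest with KD1. SRSF3, the smallest SR protein, which regulates splicing, export and 3′ end processing, fell by 0.58 ± 0.10 (SE) on the log2 scale in the average of the 3 hairpins (adjusted p = 0.0107). SRSF7, its close relative and the only member with a zinc knuckle, fell by 0.47 ± 0.10 (adjusted p = 0.0236). Among HNRNP genes HNRNPLL, a paralog of HNRNPL known for exon skipping in activated lymphocytes, fell by 0.39 ± 0.09 (adjusted p = 0.0294). These are 2 of 12 SRSF and 1 of 22 HNRNP genes, where 7.16% of all 24898 genes tested were called, 4.93% lower and 2.23% higher. No member was called higher. The median log2 fold change was -0.12 over SRSF and -0.15 over HNRNP genes, against 0.01 over all genes. These medians were -0.01 and -0.09 once a trend on GC content and length was removed, as described below. Without SCR library 2 they were 0.02 and -0.10. The SRSF count was 0 without SCR library 2, 1 without SCR library 1 or either KD1 library, and 4 without KD2 library 1.

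SRSF3 (ENSG00000112081) is annotated on chromosome 6 from 36594353 to 36605600 of the plus strand; gene coordinates are those of GENCODE 29 for GRCh38. In H1 it stood at 621 and 652 CPM with SCR, 335 and 363 with KD1, 504 and 413 with KD2, and 473 and 499 with KD3. All 6 knockdown libraries thus lay below both SCR libraries, and both KD1 libraries lay below the other 4. Against the mean of SCR, KD1 left 52.6% and 57.1%, KD2 79.1% and 64.9%, and KD3 74.4% and 78.3%. The log2 fold change was -0.87 ± 0.13 with KD1 (adjusted p = 0.00462), -0.47 ± 0.13 with KD2 (adjusted p = 0.0955) and -0.39 ± 0.13 with KD3 (adjusted p = 0.123). The hairpins share the SCR libraries, so their values are not independent of each other. The KD1 call held in 19 of 20 alternative settings, with adjusted p from 9.72e-09 to 0.0606, and was lost without KD1 library 1. The call of the H1 average also held in 19 of 20, with adjusted p from 7.10e-06 to 0.120, and was lost without SCR library 2.

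**Figure D1:**
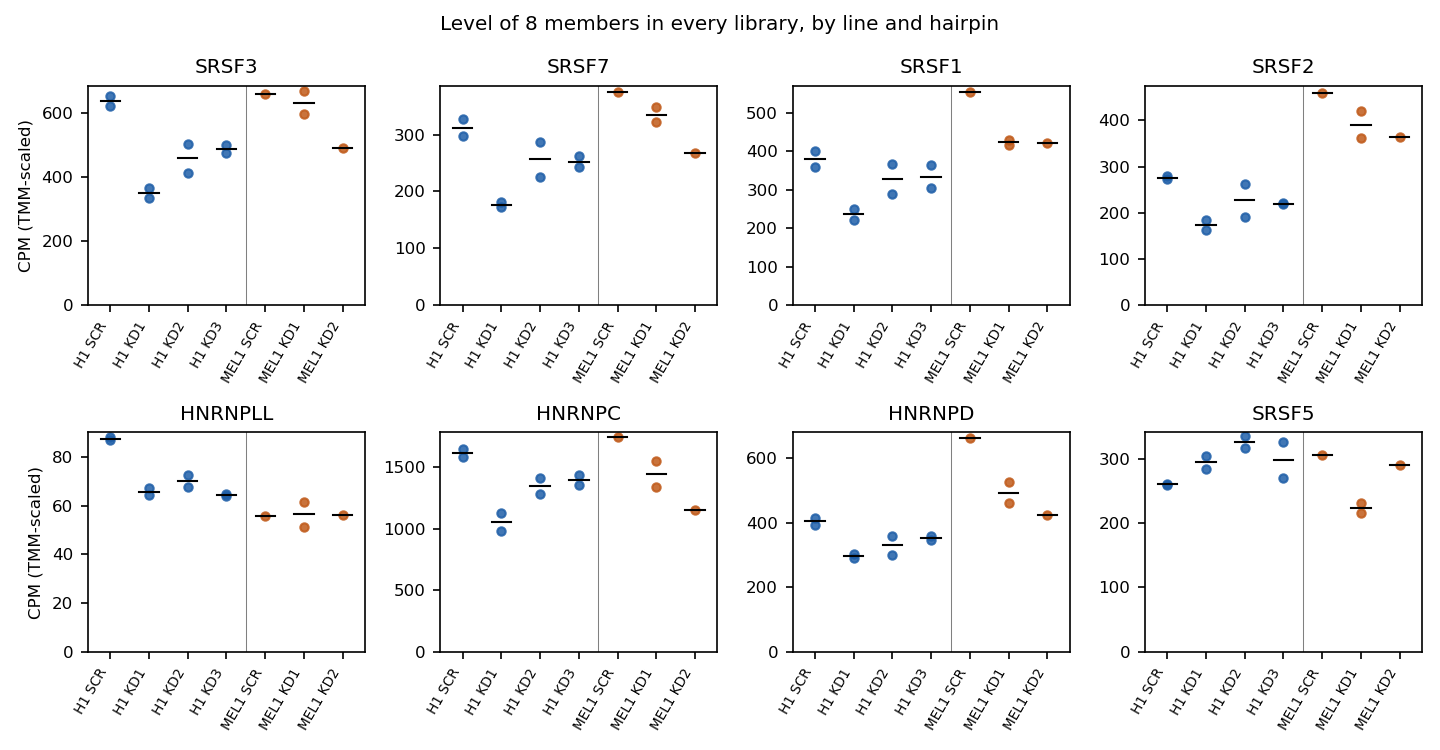
Level of 8 members in every library, in CPM (vertical axis, from 0), by line and hairpin (horizontal axis). Points are libraries and bars are group means. SRSF3 in H1 runs from 621 and 652 CPM with SCR to 335 and 363 CPM with KD1, with KD2 and KD3 between them.

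SRSF7 (ENSG00000115875, chromosome 2, 38743599 to 38751494, minus strand) stood at 297 and 328 CPM with SCR and at 172 and 181 CPM with KD1. KD2 libraries held 288 and 226 CPM and KD3 libraries 242 and 262 CPM. Again all 6 knockdown libraries were below both SCR libraries, although 1 KD2 library came within 10 CPM of the lower SCR library. SRSF7 fell by 0.82 ± 0.13 with KD1 (adjusted p = 0.00568), and its log2 fold changes were -0.28 ± 0.13 with KD2 and -0.31 ± 0.13 with KD3 (adjusted p = 0.316 and 0.228). The KD1 call was lost in 1 of 20 settings, without KD1 library 1 (adjusted p = 0.0673, over a range that starts at 2.91e-07). The H1 average of SRSF7 lost its call without either SCR library or either KD1 library, with adjusted p from 0.0512 to 0.204.

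SRSF1 and SRSF2, founding members of the family that bind purine-rich and mixed exonic enhancers, also fell with KD1. SRSF1 (ENSG00000136450, chromosome 17, 58003360 to 58007346, minus strand) was at 359 and 400 CPM with SCR and at 222 and 250 CPM with KD1. With KD2 it was at 366 and 290 CPM and with KD3 at 304 and 364 CPM, so that those hairpins overlapped SCR. Its KD1 log2 fold change was -0.69 ± 0.14 (adjusted p = 0.0146), against -0.21 ± 0.14 with KD2 and -0.18 ± 0.14 with KD3. SRSF2 (ENSG00000161547, chromosome 17, 76734115 to 76737374, minus strand), whose promoter is not shown, was at 279 and 272 CPM with SCR and at 163 and 184 CPM with KD1. Its KD2 libraries held 262 and 191 CPM and its KD3 libraries 219 and 220 CPM, all below SCR. SRSF2 fell by 0.67 ± 0.15 with KD1 (adjusted p = 0.0188), and its H1 average was -0.43 ± 0.12 (adjusted p = 0.0534). Each of these KD1 calls held in 16 of 20 settings. SRSF1 lost its call without SCR library 2 (adjusted p = 0.104), without KD1 library 1 (0.131) or 2 (0.0634) and once a trend on GC content was removed (0.0568), and SRSF2 without any 1 of the SCR or KD1 libraries (0.0561 to 0.161).

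With KD1, 4 of 12 SRSF genes were called, all lower, where 11.1% of all genes were called, 6.83% lower and 4.25% higher. The count fell to 0 without KD1 library 1, and to 2 without KD1 library 2 or without SCR library 2. Of the 12, 8 were below both SCR libraries in both KD1 libraries, where 28.8% of all genes were, and SRSF4 and SRSF5 were above both, where 27.4% were. SRSF10, which acts as a general splicing repressor when dephosphorylated, had a KD1 log2 fold change of -0.52 ± 0.17 (adjusted p = 0.0826), with 104 and 109 CPM against 132 and 172 CPM with SCR, and it was at 171 and 140 CPM with KD2 and 130 and 176 CPM with KD3. SRSF6 ranged from 185 to 293 CPM over the H1 libraries and had a KD1 value of -0.39 ± 0.15 (adjusted p = 0.117). SRSF9 ranged from 169 to 209 CPM and had -0.22 ± 0.10 (adjusted p = 0.195).

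Neither KD2 nor KD3 gave a called SRSF gene. With KD2 1.54% of all genes were called (0.691% higher and 0.851% lower), and with KD3 2.98% (1.19% higher and 1.79% lower). Both KD2 libraries were below SCR for 4 SRSF genes, SRSF2, SRSF3, SRSF7 and SRSF9, as were both KD3 libraries, where 23.6% and 24.1% of all genes were. SRSF5 and SRSF8 were above SCR in both libraries of each of these hairpins, where 23.1% and 23.8% of all genes were. At an unadjusted p under 0.05 there were 3 SRSF genes with KD2 and 4 with KD3, where 16.1% and 19% of all genes were. With KD2 these were SRSF3, which was lower, and SRSF5 and SRSF8, which were higher. With KD3 they were SRSF2, SRSF3 and SRSF7, which were lower, and SRSF11, which was higher. DESeq2 called SRSF3 with each of KD2 and KD3, and 6.01% and 9.29% of all genes.

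Not every SRSF gene was low. SRSF5, which binds exonic enhancers and responds to cell growth signals, was at 260 and 261 CPM with SCR in H1. It was at 305 and 284 CPM with KD1, 335 and 317 with KD2, and 271 and 327 with KD3. All 6 knockdown libraries were above both SCR libraries, which was so for 8.61% of all genes, and the H1 average was 0.23 ± 0.10 (adjusted p = 0.175). SRSF4, a member with a long arginine-serine domain, was at 151 and 134 CPM with SCR and at 183 and 156 CPM with KD1, with 143 and 169 CPM for KD2 and 151 and 141 CPM for KD3. In MEL1 SRSF4 was at 132 CPM with SCR, 138 and 159 with KD1 and 148 with KD2. Its H1 KD1 log2 fold change was 0.25 ± 0.13 (adjusted p = 0.263). SRSF11, known for its part in the splicing of neuronal microexons, was at 116 and 153 CPM with SCR, 142 and 132 with KD1, 163 and 148 with KD2, and 152 and 198 with KD3, and overlapped SCR with each hairpin. Its KD3 log2 fold change was 0.38 ± 0.17 (adjusted p = 0.262). SRSF8, an expressed retrocopy of SRSF2, was at 19.8 and 20.8 CPM with SCR, 18.2 and 17.98 with KD1, 26.3 and 23.2 with KD2, and 22.5 and 23.0 with KD3, so that KD1 lay below and KD2 and KD3 above SCR. SRSF12 was at 16.2 and 20.4 CPM with SCR, 19.7 and 17.2 with KD1, 18.4 and 18.7 with KD2, and 17.4 and 20.3 with KD3, and its KD1 log2 fold change was 0.01 ± 0.17.

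**Figure D2:**
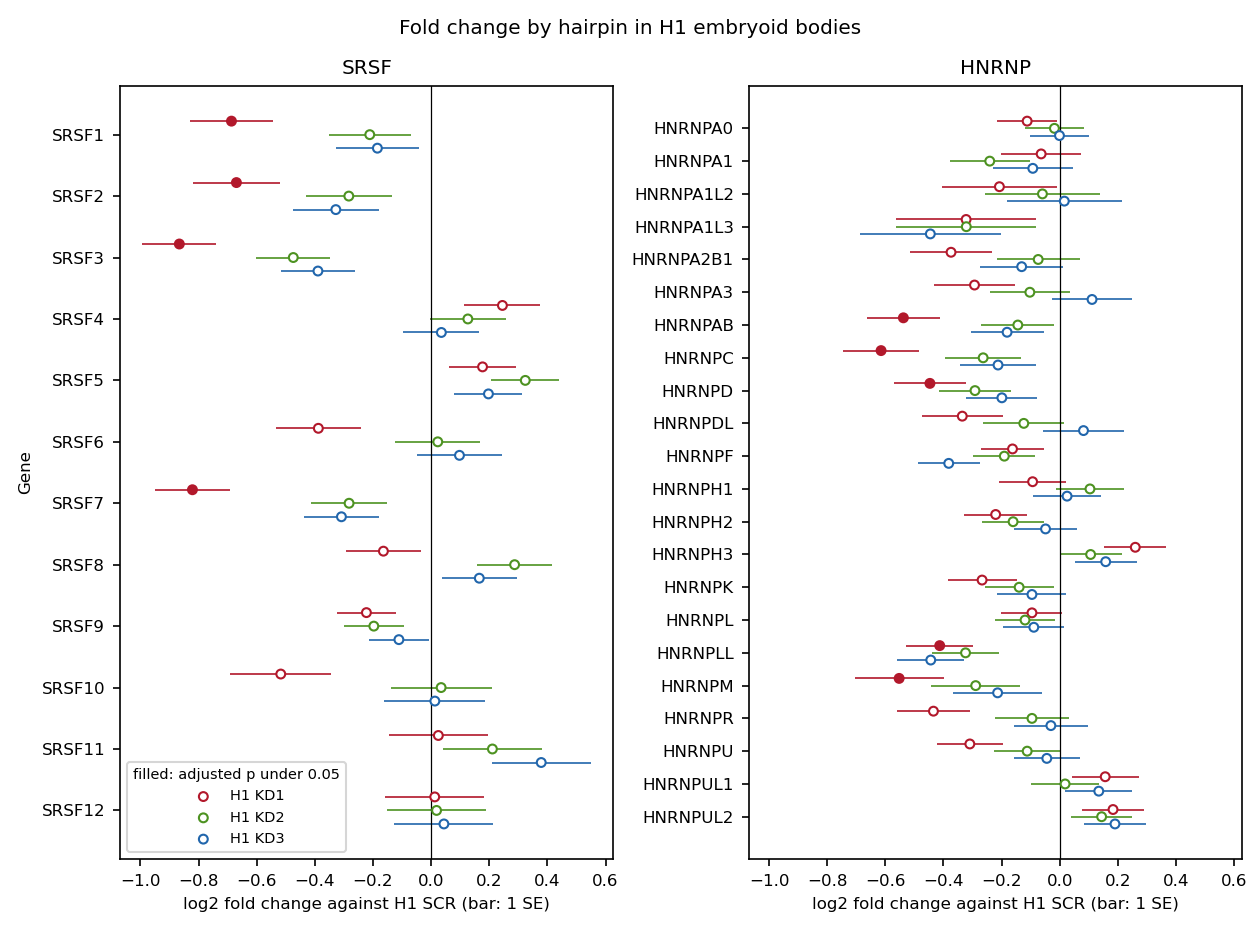
Log2 fold change of each tested member against H1 SCR (horizontal axis), by hairpin, with bars of 1 SE and filled points at an adjusted p under 0.05. The filled points are all KD1 and all left of 0, for SRSF1, SRSF2, SRSF3 and SRSF7 and for HNRNPAB, HNRNPC, HNRNPD, HNRNPLL and HNRNPM.

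Among HNRNP genes, 5 of 22 were called with KD1, all lower, against the same 11.1% of all genes. A further count, of genes with both KD1 libraries below both SCR libraries, gave 14 of 22, where 28.8% of all genes did so, and 3 were above, where 27.4% were. HNRNPC (ENSG00000092199, chromosome 14, 21209136 to 21269494, minus strand) was at 1580 and 1647 CPM with SCR and at 1127 and 981 CPM with KD1. It was at 1279 and 1409 CPM with KD2 and at 1433 and 1352 CPM with KD3, and all 6 knockdown libraries were below SCR. HNRNPC fell by 0.61 ± 0.13 with KD1 (adjusted p = 0.0163), with log2 fold changes of -0.26 ± 0.13 and -0.21 ± 0.13 for KD2 and KD3. HNRNPM (ENSG00000099783), which binds GU-rich motifs, was at 330 and 333 CPM with SCR, 196 and 256 with KD1, 307 and 236 with KD2, and 296 and 275 with KD3. HNRNPM fell by 0.55 ± 0.15 with KD1 (adjusted p = 0.0418). HNRNPAB (ENSG00000197451) was at 325 and 309 CPM with SCR, 199 and 238 with KD1, 302 and 272 with KD2, and 285 and 274 with KD3. It fell by 0.54 ± 0.13 with KD1 (adjusted p = 0.0224).

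HNRNPD (ENSG00000138668), also known as AUF1 and a regulator of the decay of AU-rich transcripts, was at 393 and 415 CPM with SCR and at 303 and 290 CPM with KD1. KD2 libraries held 360 and 300 CPM and KD3 libraries 345 and 359 CPM, all below SCR. HNRNPD fell by 0.45 ± 0.12 with KD1 (adjusted p = 0.0407). HNRNPLL (ENSG00000143889, chromosome 2, 38561978 to 38603586, minus strand) was at 88.4 and 87.1 CPM with SCR, 67.3 and 64.5 with KD1, 67.6 and 72.6 with KD2, and 64.3 and 64.7 with KD3. Here the 3 hairpins were close to each other, with log2 fold changes of -0.41 ± 0.11, -0.32 ± 0.11 and -0.44 ± 0.11 and adjusted p = 0.0420, 0.190 and 0.0646. The test between the hairpins gave HNRNPLL an adjusted p of 0.774.

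The HNRNP calls in H1 held in fewer settings than those of SRSF3. The KD1 count went from 5 to 0 without SCR library 2, KD1 library 1 or KD1 library 2, to 1 without SCR library 1, to 2 without either KD3 library and to 3 without the MEL1 SCR library. Without SCR library 1 the called gene was HNRNPR, so that none of the 5 held there. The count was 3 and 2 under 2 other scalings and 9 (8 lower, 1 higher) with DESeq2, which called 20.4% of all genes. The KD1 calls of HNRNPC and HNRNPAB held in 16 of 20 settings, that of HNRNPD in 12, and those of HNRNPM and HNRNPLL in 8. The HNRNPM log2 fold change ran from -0.76 to -0.34 over these settings (adjusted p 0.00149 to 0.321), and its call was also lost under both other scalings. The HNRNPLL call of the H1 average held in 11 of 20 settings (adjusted p 0.00817 to 0.163) and was lost without any 1 of the 8 H1 libraries. Over the H1 average, 7 of 22 HNRNP genes had all 6 knockdown libraries below both SCR libraries, as did 4 of 12 SRSF genes, where 11.7% of all genes did. The SRSF genes were SRSF2, SRSF3, SRSF7 and SRSF9, and the HNRNP genes were HNRNPAB, HNRNPC, HNRNPD, HNRNPF, HNRNPK, HNRNPLL and HNRNPM. HNRNPH3 and HNRNPUL2 were above SCR in all 6 (8.61% of all genes).

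HNRNPF, a binder of G-runs, was at 247 and 249 CPM with SCR, 217 and 227 with KD1, 229 and 206 with KD2, and 202 and 180 with KD3. Its KD3 log2 fold change was -0.38 ± 0.11 (adjusted p = 0.083), against -0.16 ± 0.11 with KD1. HNRNPH3, of the same subfamily, was at 315 and 349 CPM with SCR, 403 and 392 with KD1, 354 and 361 with KD2, and 351 and 389 with KD3. It had the highest KD1 log2 fold change of the HNRNP genes, 0.26 ± 0.11 (adjusted p = 0.147). HNRNPUL2 was at 165 and 177 CPM with SCR, 203 and 185 with KD1, 194 and 184 with KD2, and 186 and 204 with KD3, with an H1 average of 0.17 ± 0.09 (adjusted p = 0.265).

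None of the other HNRNP genes was called in H1. HNRNPA1 was at 3387 and 3434 CPM with SCR and between 2830 and 3585 CPM over the 6 knockdown libraries, with an H1 average of -0.13 ± 0.11. HNRNPA2B1 was at 1082 and 1323 CPM with SCR, 959 and 896 with KD1, 1233 and 1051 with KD2, and 1021 and 1175 with KD3. Its KD1 log2 fold change was -0.37 ± 0.14 (adjusted p = 0.119). HNRNPU was at 893 and 921 CPM with SCR, 737 and 727 with KD1, 876 and 803 with KD2, and 837 and 923 with KD3. HNRNPA3 was at 533 and 675 CPM with SCR, 516 and 469 with KD1, 592 and 532 with KD2, and 611 and 693 with KD3, and HNRNPDL at 346 and 407, 321 and 276, 376 and 315, and 367 and 429 CPM in the same order. For these 3 genes both KD1 libraries lay below SCR, and KD3 overlapped SCR. HNRNPA0 was at 408 and 390 CPM with SCR, 360 and 378 with KD1, 407 and 381 with KD2, and 391 and 406 with KD3. HNRNPL was at 195 and 181 CPM with SCR, 186 and 166 with KD1, 169 and 177 with KD2, and 177 and 176 with KD3. The near-copy HNRNPA1L3 was at 4.71 and 5.12 CPM with SCR, 3.03 and 4.83 with KD1, 3.72 and 4.15 with KD2, and 3.71 and 3.52 with KD3, and had the lowest KD3 value of the HNRNP genes, a log2 fold change of -0.45 ± 0.24 (adjusted p = 0.356). HNRNPR, an RNA transport factor of neurons, came nearest to the threshold of the uncalled members with KD1, at -0.43 ± 0.13 (adjusted p = 0.0508). HNRNPA3, HNRNPDL, HNRNPK, HNRNPU and HNRNPH2 had KD1 log2 fold changes from -0.34 to -0.22, and HNRNPA0, HNRNPH1, HNRNPL, HNRNPA1L2, HNRNPA1L3 and HNRNPUL1 had values from -0.32 to 0.16. With KD2 and with KD3 no HNRNP gene was called, and 11 and 10 of 22 had both libraries below SCR, where 23.6% and 24.1% of all genes had. At an unadjusted p under 0.05 there were 2 HNRNP genes with each of KD2 and KD3, against 16.1% and 19% of all genes, and DESeq2 called 0 and 2, against 6.01% and 9.29%.

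Whether the hairpins differed was tested by a contrast of KD1, KD2 and KD3 that does not compare with SCR. All 12 libraries, SCR included, still entered its estimate of the spread. Both KD1 libraries were below all 4 KD2 and KD3 libraries for 8 of 12 SRSF genes and 7 of 22 HNRNP genes, where this was so for 17.3% of all genes. The SRSF genes were SRSF1, SRSF2, SRSF3, SRSF6, SRSF7, SRSF8, SRSF10 and SRSF11. Of the SRSF genes none, and of the HNRNP genes only HNRNPH3, had both KD1 libraries above (14.1% of all genes). The test that the 3 hairpins are equal called no member, where 3.54% of all genes were called. SRSF7 came nearest, with adjusted p = 0.0622, followed by SRSF3 with 0.103 and SRSF1 with 0.107. At an unadjusted p under 0.05 there were 6 SRSF and 5 HNRNP genes, where 20% of all genes were, and DESeq2 called 5 and 1, where it called 13.1% of all genes. A difference between the hairpins was therefore not established for any member by the edgeR test.

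**Figure D3:**
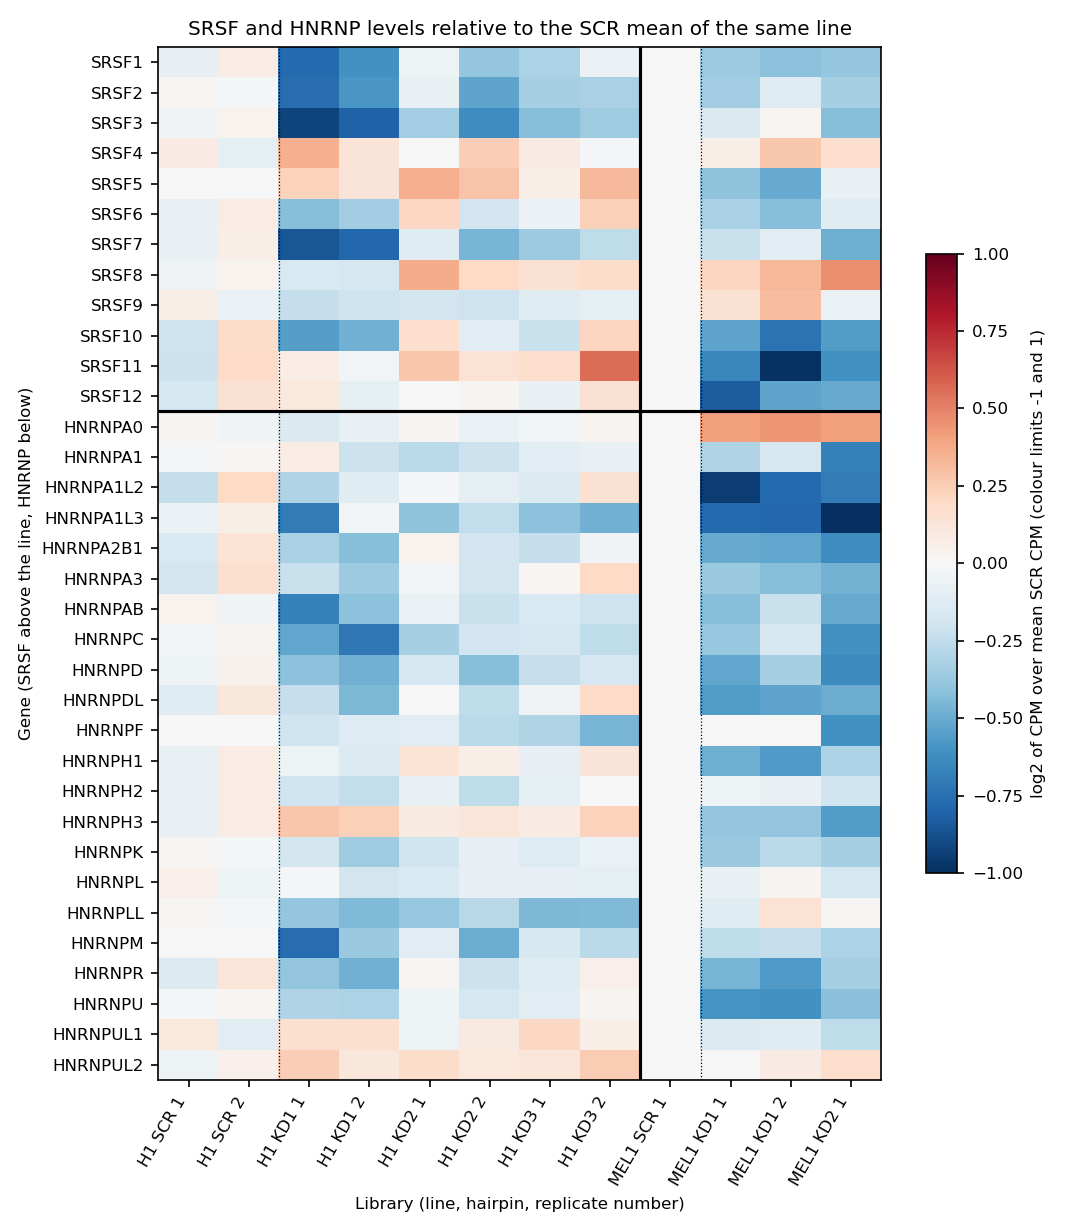
Log2 of each library's CPM over the mean SCR CPM of its line (colour, red higher and blue lower, limits -1 and 1) for the 34 tested members (rows) in the 12 libraries (columns). The KD1 columns of H1 are darkest for SRSF3 and SRSF7. In MEL1 most rows are blue in all 3 knockdown columns, against a single SCR library.

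Fold changes with KD1 moved with the GC content of the transcript across all genes, and most members had a GC content below the median of all genes. Over 10407 genes of at least 10 CPM, Spearman's rho between the KD1 log2 fold change and GC content was 0.375 (genes are not independent, and share libraries). It was 0.079 for KD2, -0.092 for KD3 and 0.614 for the MEL1 average. Within the members the KD1 rho was 0.154 over the 12 SRSF and 0.082 over the 22 HNRNP genes, and the MEL1 rho 0.490 and 0.154. The median GC content was 43.9% over SRSF and 44.8% over HNRNP genes, against 50.0% over 16518 protein-coding genes. Above that median were 2 of 12 SRSF genes, SRSF4 and SRSF9, and 6 of 22 HNRNP genes, among them HNRNPAB and HNRNPM, which were called lower with KD1. Genes at a median GC content of 40.2% had a median KD1 log2 fold change of -0.23, and those at 44.8% one of -0.19. SRSF3, at 39.3% GC, and SRSF7, at 40.9%, lay below the lower quartile of genes of like GC content.

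After a smooth trend on GC content and length had been taken out of every library, an alternative chosen after the data were seen, SRSF3 was called lower with every H1 hairpin, where 9.37%, 2.1% and 4.13% of all genes were with KD1, KD2 and KD3. Its log2 fold changes were then -0.68 with KD1, -0.51 with KD2 and -0.48 with KD3. SRSF7 and SRSF2 kept their KD1 calls at -0.59 and -0.52, as did HNRNPC at -0.39, HNRNPM at -0.57 and HNRNPAB at -0.55. The KD1 calls of SRSF1 (-0.55), HNRNPD (-0.25) and HNRNPLL (-0.23) were lost. HNRNPH3, which DESeq2 also called with KD1, was called higher in the KD1 comparison at 0.50 and in the H1 average at 0.28, and SRSF5 in the H1 average at 0.30, where 5.61% (KD1) and 4.33% (H1 average) of all genes were called higher. With the trend removed 3732 of 24898 genes were called with KD1, against 2758 before.

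**Figure D4:**
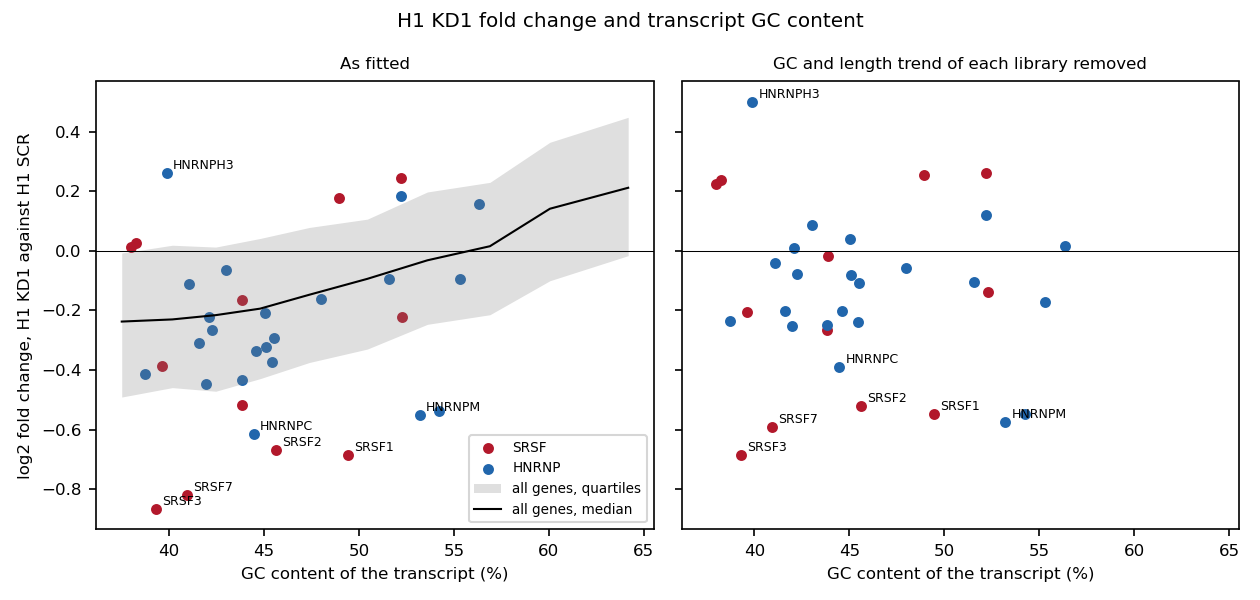
KD1 log2 fold change in H1 (vertical axis) against GC content of the principal transcript (horizontal axis, percent) for the members, as fitted (left, with the median and quartiles of all genes by GC content) and with each library's GC and length trend removed (right). SRSF3 moves from -0.87 to -0.68 and HNRNPH3 from 0.26 to 0.50.

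In MEL1, most members were lower in the knockdown libraries than in the SCR library, and 1 was called. This comparison rests on a single SCR library with the lowest depth, which was assumed to vary like the other groups. Of the members, 8 of 12 SRSF and 17 of 22 HNRNP genes lay below that library in all 3 knockdown libraries, as did 25.7% of all genes. SRSF4, SRSF8 and HNRNPA0 lay above it in all 3, as did 31.6% of all genes. The median log2 fold change was -0.27 over SRSF and -0.42 over HNRNP genes, against 0.07 over all genes. The test called 0 of 12 SRSF and 1 of 22 HNRNP genes, where 4.45% of all genes were called, 1.51% lower and 2.93% higher. That split depended on the scaling: 730 of 1107 calls were higher with TMM, 516 of 1029 with RLE and 457 of 977 with upper-quartile scaling. The called gene was HNRNPA1L3, at 9.54 CPM with SCR, 5.58 and 5.54 with KD1 and 3.22 with KD2, which fell by 1.17 ± 0.28 (adjusted p = 0.0396). The call held in 10 of 17 settings (adjusted p from 0.0107 to 0.0868) and was lost without either MEL1 KD1 library and without any 1 of the H1 KD2 or KD3 libraries. At an unadjusted p under 0.05 there were 5 SRSF and 16 HNRNP genes, where 22.7% of all genes were, and DESeq2 called 2 and 15, where it called 13.6% of all genes.

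HNRNPU, a nuclear matrix and chromatin binding protein, was at 1201 CPM with SCR in MEL1, 800 and 789 with KD1 and 901 with KD2, a log2 fold change of -0.51 ± 0.13 (adjusted p = 0.0514). HNRNPH3 was at 412 CPM with SCR, 315 and 313 with KD1 and 280 with KD2, at -0.47 ± 0.12 (adjusted p = 0.0539). HNRNPD was at 662 CPM with SCR, 461 and 526 with KD1 and 425 with KD2, at -0.53 ± 0.14 (adjusted p = 0.0562). HNRNPA2B1 was at 2092 CPM with SCR, 1478 and 1463 with KD1 and 1350 with KD2, at -0.57 ± 0.16 (adjusted p = 0.0709). HNRNPC, called with KD1 in H1, was at 1744 CPM with SCR in MEL1, 1340 and 1551 with KD1 and 1149 with KD2. These 5 genes were not called, and every knockdown library was below the SCR library for each. HNRNPA0 went the other way, with 263 CPM in SCR, 350 and 356 with KD1 and 349 with KD2, at 0.42 ± 0.12 (adjusted p = 0.0779).

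SRSF11 had the lowest SRSF fold change in MEL1. It was at 211 CPM with SCR, 135 and 106 with KD1 and 139 with KD2, at -0.71 ± 0.19 (adjusted p = 0.0646). SRSF10 was at 234 CPM with SCR, 162 and 140 with KD1 and 159 with KD2, at -0.59 ± 0.20 (adjusted p = 0.111), and SRSF12 at 16.4 CPM with SCR, 9.21 and 11.3 with KD1 and 11.6 with KD2, at -0.59 ± 0.20 (adjusted p = 0.122). SRSF8 was highest, with 15.3 CPM in SCR, 17.7 and 19.2 with KD1 and 21.0 with KD2, at 0.37 ± 0.16 (adjusted p = 0.205). SRSF3 was at 658 CPM with SCR, 596 and 666 with KD1 and 490 with KD2, so that KD1 overlapped the SCR value, at -0.24 ± 0.15 (adjusted p = 0.361). SRSF7 was at 376 CPM with SCR, 322 and 349 with KD1 and 268 with KD2, at -0.32 ± 0.15 (adjusted p = 0.228). In MEL1 the lowest SRSF3 and SRSF7 values were thus with KD2, and in H1 with KD1. With the GC and length trend removed, the median in MEL1 was -0.11 over SRSF and -0.24 over HNRNP genes. SRSF11 was then called lower at -0.45 and HNRNPA0 higher at 0.67, and HNRNPA1L3 was not called. In that fit 1.31% of all genes were called lower and 2.43% higher.

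The effect of KD1 and KD2 was compared between the lines in 1 model, which called no member, where 0.598% of all genes were called. HNRNPH3 came nearest, its effect in MEL1 being lower than in H1 by a log2 difference of -0.66 ± 0.15 (adjusted p = 0.0749). SRSF11 differed by -0.82 ± 0.25 (adjusted p = 0.131), HNRNPA0 by 0.48 ± 0.15 (adjusted p = 0.144) and SRSF5 by -0.52 ± 0.17 (adjusted p = 0.160). SRSF5 was above SCR in all 6 H1 knockdown libraries, whereas in MEL1 it was at 307 CPM with SCR, 232 and 216 with KD1 and 290 with KD2. SRSF3 differed by 0.43 ± 0.19 (adjusted p = 0.270), the largest positive value among SRSF genes. At an unadjusted p under 0.05 there were 4 SRSF and 6 HNRNP genes, where 17.2% of all genes were, and DESeq2 called 2 (SRSF5 and SRSF11) and 1 (HNRNPH3), where it called 4.21% of all genes. HNRNPH3 and SRSF11 were also called once the GC and length trend was removed, as were 2.47% of all genes.

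Over both lines, with line as a covariate, the fit called no SRSF and no HNRNP gene, where 0.213% of all genes were called. SRSF3 had a log2 fold change of -0.44 ± 0.14 (adjusted p = 0.165), SRSF7 -0.39 ± 0.15 (adjusted p = 0.217), SRSF2 -0.37 ± 0.13 (adjusted p = 0.181) and SRSF1 -0.36 ± 0.14 (adjusted p = 0.226). HNRNPD had the lowest adjusted p among the members, with -0.37 ± 0.11 (adjusted p = 0.123). The highest fold changes were 0.18 ± 0.14 for SRSF8 and 0.14 ± 0.09 for HNRNPUL2. The median was -0.17 over SRSF and -0.24 over HNRNP genes, against 0.05 over all genes. At an unadjusted p under 0.05 there were 4 SRSF and 10 HNRNP genes, where 15.7% of all genes were, and DESeq2 called 0 and 1 (HNRNPD, lower), where it called 5.37% of all genes and 2.96% lower. This fit counts differences between hairpins and lines as spread, and a fit of the 7 group means called 4 SRSF genes (SRSF1, SRSF2, SRSF3 and SRSF7) and 7 HNRNP genes over both lines, where it called 10.8% of all genes.

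Between the lines more members were called than in any knockdown comparison, in shares near that of all genes. At matched hairpins (SCR, KD1 and KD2), 6 of 12 SRSF and 12 of 22 HNRNP genes were called between MEL1 and H1, where 49.1% of all genes were called, 23% higher and 26.2% lower in MEL1. Higher in MEL1 were 5 SRSF and 9 HNRNP genes, and lower were 1 and 3. The largest difference was that of SRSF2, at 460 CPM in MEL1 SCR, 361 and 420 with KD1 and 365 with KD2, all above every H1 library of these groups (163 to 279 CPM). SRSF2 was higher in MEL1 by a log2 value of 0.86 ± 0.10 (adjusted p = 2.32e-05). SRSF1 was at 553 CPM in MEL1 SCR, 430 and 418 with KD1 and 423 with KD2, higher by 0.59 ± 0.09 (adjusted p = 0.000326), again without overlap. SRSF7, SRSF10 and SRSF3 were higher by 0.42 ± 0.09, 0.39 ± 0.11 and 0.33 ± 0.08. SRSF12 was lower by a log2 value of -0.56 ± 0.12 (adjusted p = 0.00212).

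Of the HNRNP genes, HNRNPAB was at 500 CPM in MEL1 SCR, 372 and 430 with KD1 and 353 with KD2, all above the H1 libraries (199 to 325 CPM). HNRNPAB was higher in MEL1 by 0.61 ± 0.08 (adjusted p = 9.77e-05) and HNRNPD by 0.60 ± 0.08 (adjusted p = 8.89e-05). HNRNPF was at 391 CPM in MEL1 SCR, 392 and 391 with KD1 and 257 with KD2, higher by 0.57 ± 0.07 (adjusted p = 4.82e-05). HNRNPA2B1 was higher by 0.57 ± 0.09 and HNRNPM, at 441 CPM in MEL1 SCR, 371 and 376 with KD1 and 354 with KD2, by 0.51 ± 0.10. These 5 genes did not overlap between the lines, and neither did SRSF1 and SRSF2, where 13.2% of all genes were higher in MEL1 without overlap. HNRNPDL, at 596 CPM in MEL1 SCR, 404 and 414 with KD1 and 423 with KD2, was higher by 0.47 ± 0.09. HNRNPA3 (834, 646, 622 and 602 CPM in the same order) was higher by 0.31 ± 0.09, HNRNPU by 0.21 ± 0.07 and HNRNPL (213, 202, 218 and 189 CPM) by 0.19 ± 0.07.

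Lower in MEL1 without overlap were HNRNPLL and HNRNPA0, where 14.1% of all genes were. HNRNPLL was at 55.9 CPM in MEL1 SCR, 51.4 and 61.7 with KD1 and 56.2 with KD2, against 64.5 to 88.4 CPM in the H1 libraries, a log2 value of -0.40 ± 0.08 (adjusted p = 0.00141). HNRNPA0 was lower by -0.28 ± 0.07 (adjusted p = 0.00555). HNRNPUL2, at 150 CPM in MEL1 SCR, 150 and 159 with KD1 and 170 with KD2, was lower by -0.22 ± 0.07 (adjusted p = 0.0218). The MEL1 libraries also held more pluripotency marker RNA and less neural progenitor marker RNA than H1, in the ranges given above. The calls of HNRNPL, HNRNPU and HNRNPUL2 were lost in 10, 6 and 2 of 17 settings, with adjusted p up to 0.141, 0.088 and 0.0545. Each was lost on leaving out single H1 libraries, and HNRNPL also without MEL1 KD1 library 2. With the GC and length trend removed, SRSF10, HNRNPA0 and HNRNPA3 were not called (0.20, -0.21 and 0.13), and SRSF4, SRSF5, SRSF8 and SRSF9 were called lower in MEL1, where 29% of all genes were.

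**Figure D5:**
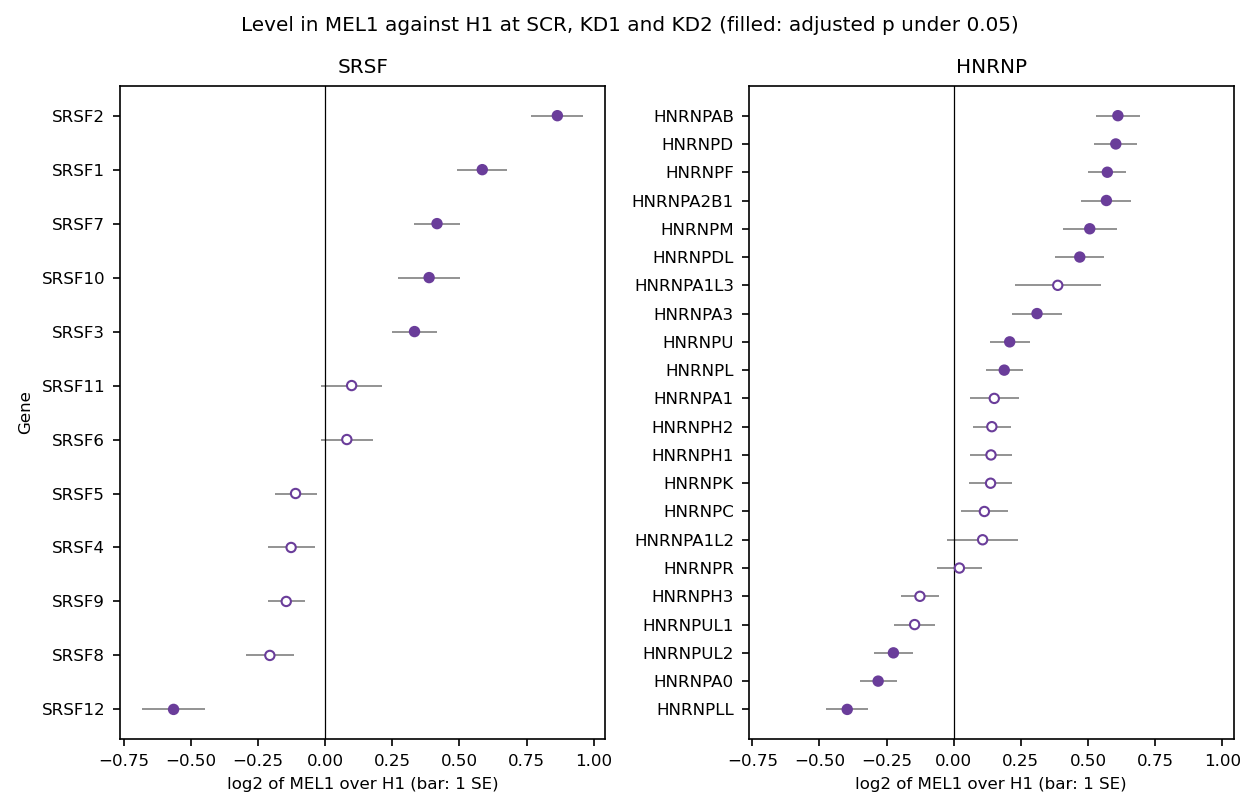
Log2 of the MEL1 over the H1 level at matched hairpins (horizontal axis, bars of 1 SE) for the tested SRSF (left) and HNRNP (right) genes, with filled points at an adjusted p under 0.05. SRSF2 is farthest right at 0.86 and SRSF12 farthest left at -0.56.

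Transcript types in the annotation were counted for both families. All 12 SRSF genes had at least 1 GENCODE transcript marked for nonsense-mediated decay, against 13 of 22 HNRNP genes (59.1%) and 40.0% of 16527 tested protein-coding genes. Transcripts with a retained intron were annotated for 9 of 12 SRSF genes and 14 of 22 HNRNP genes, against 52.3%. SRSF7 had 6 transcripts marked for decay, SRSF3 2, and HNRNPU 9. The sequence GGACT, a core of the m6A consensus, was in the principal transcript of 12 of 12 SRSF and 19 of 22 HNRNP genes, against 90.7%. Per kilobase it occurred 0.637 times in the median SRSF and 0.908 times in the median HNRNP gene, against 0.946. SRSF9 (3.33 per kb) and SRSF7 (2.01 per kb) had the most of the SRSF genes, and SRSF3 had 0.474 per kb. HNRNPAB, HNRNPM and HNRNPR had none. These counts describe the annotation and the sequence, and no methylation was measured.

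Other splicing genes were counted beside the members. Of 32 core snRNP proteins, the constant parts of the spliceosome, 11 were called lower and 0 higher in the H1 average, where 4.93% and 2.23% of all genes were, with a median of -0.25 against 0.01 over all genes. SNRPG fell by 0.83 ± 0.13, SNRPD1 by 0.70 ± 0.11, SNRPB2 by 0.63 ± 0.11 and SNRPE by 0.55 ± 0.11. SNRPC, SNRNP40, SNRPD3 and SNRNP25 fell by 0.46, 0.38, 0.38 and 0.44. SNRPG and SNRPD1 were also called over both lines, at -0.83 ± 0.14 and -0.74 ± 0.13 (adjusted p = 0.0313 and 0.0399). Of 25 SR-related proteins outside the symbol rule, TRA2B, a binder of GAA-rich enhancers, was called in the H1 average at -0.45 ± 0.10 (adjusted p = 0.0223), and none higher. Of 20 hnRNP-class proteins with other symbols, PTBP2, the neuronal polypyrimidine tract binding protein, was called at -0.53 ± 0.12 (adjusted p = 0.0280). None of 13 tested SR protein kinases, phosphatases and importers was called in the H1 average. With KD1 2 of the 13 were called, where 11.1% of all genes were. SRPK1 fell by 0.64 ± 0.14 with KD1 (adjusted p = 0.0185), and CLK3 rose by 1.12 ± 0.21 (adjusted p = 0.0111).

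Among 29 tissue-restricted splicing regulators, 4 rose and 1 fell in the H1 average, where 2.23% and 4.93% of all genes did, with a median of 0.13. RBFOX3, a marker of neurons, rose by 0.74 ± 0.17 and NOVA2, of neurons, by 0.51 ± 0.12. RBM24, of heart and muscle, rose by 0.69 ± 0.17 and ESRP1, of epithelia, by 0.54 ± 0.14. CELF6 fell by 1.42 ± 0.33. Of the 5 neuron markers checked first, 1 was called lower and 0 higher in the H1 average. Of 14 nonsense-mediated decay factors, MAGOH, of the exon junction complex, fell by 0.51 ± 0.12 (adjusted p = 0.0315). Of 15 genes of the m6A machinery, METTL14 and WTAP, which anchors the writer complex in nuclear speckles, were called lower in the H1 average and over both lines. WTAP fell by 0.50 ± 0.08 in the H1 average (adjusted p = 0.00947). YTHDC1, the nuclear m6A reader that binds SRSF3, had 0.11 ± 0.11 (adjusted p = 0.609).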

How the data were processed

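Total RNA of 12 embryoid body libraries was sequenced after a stranded preparation, per the labels' protocols. The authors deposited 1 table of estimated counts per Ensembl identifier, with totals that differ between libraries, in which 14.8% to 20.8% of a library's values are not whole. The submitters' processing notes name fastp and kallisto, and versions, annotation, build and strand setting are not given in the sources used here. Such estimates divide reads between similar genes, so near-copies, overlapping genes and antisense genes are uncertain.

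Symbols came from a name table holding 59243 of the 65969 identifiers (41981 with a symbol). Coordinates, lengths, GC content and transcript types were taken from GENCODE 29 (GRCh38) by identifier, for all 38 members. The RefSeq promoter table held 34 of the members.

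Estimated counts were rounded and genes were kept by filterByExpr of edgeR 4.0.16 with the 7 groups, which left 24898. After TMM scaling, robust quasi-likelihood F-tests were run (limma 3.58.1, R 4.3.3), with Benjamini-Hochberg adjustment over all genes and calls at an adjusted p under 0.05. The comparison over both lines had line and knockdown as terms. All others were contrasts of the 7 group means, with 5 residual degrees of freedom. A standard error is the absolute log2 fold change over the root of its F statistic. Fits were checked on simulated data with 200 genes changed by a log2 value of 1. Recovered were 98.0% over both lines, 94.5% in the H1 average, 86.5% with KD1 and 51.5% in MEL1, and 3.92%, 10.8%, 8.47% and 8.04% of calls were false, the last 3 shares above the nominal level. The simulated libraries had the same gene proportions in both lines, and a changed gene changed alike in all altered groups. They held no differences in effect between hairpins or lines, which the fit over both lines counts as spread. Most member changes were also below a log2 value of 1. The recovered shares therefore do not apply to the members, and least so over both lines. Alternatives were 2 other scalings, 2 other filters, DESeq2 1.42.0, a fit that is not robust, group means, H1 libraries by themselves, leaving out each library and, added after the data were seen, removal of each library's spline trend on transcript GC (5 degrees of freedom) and log2 length (4), with values for 90.7% of genes. Counting error and the spread between libraries were not separated for the members.

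Members and lists were chosen with earlier results of these data known. Values in every library are given for METTL14, for members called in any comparison and for the members with the largest and smallest fold change of a family. Other members are given by range, and list genes are named where they were called in the H1 average or over both lines, at most 8 a list by adjusted p. SRPK1, CLK3 and YTHDC1 were named after their values were seen.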

Additional observations from a re-analysis of the deposited data

How the results depend on the processing

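No paired analysis was possible because the labels carry no replicate numbers. Of 138 counts of called members under other settings and 204 leaving out 1 library, 98 and 170 stayed within 1.5 times the reported count. These include reported counts of 0 that stayed 0, so they say little of how steady the counts above 0 were. No called fold change reversed. Counts over both lines (0 SRSF, 0 HNRNP) were 4 and 7 with group means, and 1 HNRNP with DESeq2. In the H1 average (2 SRSF, 1 HNRNP) they were 4 and 3 with no filter and 4 and 3 with DESeq2. With KD1 (4 SRSF, 5 HNRNP) HNRNP counts were 3 with RLE scaling, 2 with upper-quartile scaling and 9 with DESeq2. With KD2 (0 and 0) SRSF was 1 with no filter, DESeq2 or the GC and length trend removed. With KD3 (0 and 0) SRSF was 1 with DESeq2 or the trend removed, and HNRNP was 1 with no filter, 2 with DESeq2 and 1 with H1 libraries by themselves. Between the H1 hairpins (0 and 0) SRSF was 5 with no filter or DESeq2, and HNRNP was 1 with DESeq2 and 2 with the trend removed. In MEL1 (0 SRSF, 1 HNRNP) SRSF was 1 with RLE, upper-quartile scaling, a mean of at least 1 CPM or the trend removed and 2 with no filter or DESeq2. There HNRNP was 4 with RLE, 5 with upper-quartile scaling, 5 with no filter, 4 with a mean of at least 1 CPM, 15 with DESeq2 and 2 with the fit that is not robust. For the difference between lines (0 and 0) SRSF was 1 with no filter, 2 with DESeq2 and 1 with the trend removed, and HNRNP was 1 under each of these 3. The cause of these shifts was not tested. Leaving out 1 library, counts ranged from 0 to 4 (SRSF) and 0 to 1 (HNRNP) in the H1 average, 0 to 4 and 0 to 5 with KD1, and 0 to 1 for HNRNP with KD3. They ranged from 0 to 1 for SRSF between hairpins and from 0 to 1 for each family in MEL1. Leaving out the MEL1 SCR or MEL1 KD2 library gave no MEL1 contrast. In MEL1 the median of all genes was 0.07, and 0.01 and 0.00 under RLE and upper-quartile scaling. The MEL1 SCR library's lower depth and single number limit every MEL1 value.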
